A study of Mus musculus with 36 samples.

Results

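The nuclear genes for subunits and assembly factors of the mitochondrial respiratory chain were followed in mouse forelimbs, in 79 of the 50833 genes of the deposited count table. They were chosen by name and level: the symbol starts with Nduf (complex I), Uqcr (complex III), Cox4 to Cox8 (complex IV) or Atp5 (ATP synthase), the gene is autosomal, and its mean over the 36 libraries is at least 20 counts. Of 107 genes with such a name, 14 were left out as pseudogenes by symbol, 10 for a mean under 20 counts, 3 (Ndufa1, Ndufb11 and Cox7b) as not autosomal, and Atp5g3 by the rule itself. The members comprise 27 accessory subunits, 7 core subunits and 8 assembly factors of complex I, 8 subunits of complex III, 14 of complex IV (Ndufa4, which is named for complex I, is counted here) and 15 of ATP synthase. Just inside the count threshold lay Cox6a2, with a mean of 21.9 counts. Just outside were Cox7a1 with 9.08, Ndufa4l2 with 7.83, Atp5l with 4.47 and Cox8b with 3.58 counts.

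Poly(A) RNA was sequenced from the distal and the proximal part of the forelimb of mouse embryos at stage E12.5 (strain B6CBAF1), each library from the pair of limbs of an individual embryo. Embryos carried 1 of 5 deletions of CTCF binding sites (CBS) at the Hoxd gene cluster, made with CRISPR/Cas9, or none. The alleles were Del(CBS1), then Del(CBS1-2) and Del(CBS1-3), then Del(CBS1-4), and last Del(CBS1-5). With wild type (WT) there were 6 genotypes, with 3 embryos of each and both tissues from each embryo, which makes 12 groups. CTCF is the architectural protein whose bound sites delimit chromatin loops, and the Hoxd cluster holds the Hox genes that pattern the limb; none of the 79 genes lies in that cluster. The labels do not say whether the alleles were homozygous or which embryos were littermates. Library totals ran from 11062069 to 17727891 counts.

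The respiratory chain passes electrons from NADH through complex I, or from succinate through complex II, to complex III, on by cytochrome c to complex IV, and there to oxygen. Complexes I, III and IV pump protons across the inner mitochondrial membrane, and ATP synthase uses the gradient to make ATP. Nearly all subunits are encoded in the nucleus and imported, while a small set is encoded by mitochondrial DNA, so that the nuclear genes are read as a large set of genes for few protein complexes. Some subunits have tissue isoforms: Cox6a2, Cox7a1 and Cox8b are the forms of heart and skeletal muscle, and Cox4i2 is known from lung and from cells at low oxygen.

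The promoters of 65 of the 79 genes were found in the RefSeq table for build GRCm38.p6. The 250 bases before the RefSeq transcription start were searched on both strands for motifs of factors known from genes of this class. That start can differ from the one in the authors' gene coordinates. The motif of NRF1, nuclear respiratory factor 1, written GCGCA, any base, GCGC, was present in 11 of 65 (16.9%), against 3.92% of all 25748 promoters of the same length. The ETS motif CCGGAAG, which GABP reads, was present in 11 (16.9%, against 7.17% of all). CCAAT, the motif of NF-Y, was in 26 (40%, against 34.3%), the oestrogen-related receptor motif AAGGTCA in 3 (4.6%, against 4.05%), and the YY1 motif AAGATGGC in 0 (against 1.59%). None of these strings contains another, and the NRF1 string can match both strands at the same place. The NRF1 string is given with its neighbouring bases, and in capitals, for 4 of the 11 genes. They were chosen by a result described further on, a call as higher in distal tissue on average over the genotypes. The string was in 4 of 25 matched members with that call and in 7 of the 40 others. The 4 genes are 2 accessory subunits and an assembly factor of complex I, and a subunit of complex IV. All sequences are from RefSeq, GRCm38.p6, read 5′ to 3′ on the strand of the gene. They are Ndufs6 (chr13:73328483-73328513, minus strand), Ndufa8 (chr2:36049344-36049383, minus strand), Ndufaf4 (chr4:24897955-24897994, plus strand) and Cox6a1 (chr5:115349051-115349135, minus strand), whose window holds 2 matches. By the authors' gene coordinates (up to chr13:73328542 and chr2:36049406), the stretches of Ndufs6 and Ndufa8 lie inside the gene.
Ndufs6: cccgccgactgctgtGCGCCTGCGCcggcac
Ndufa8: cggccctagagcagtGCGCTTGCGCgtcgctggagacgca
Ndufaf4: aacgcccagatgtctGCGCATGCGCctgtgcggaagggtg
Cox6a1: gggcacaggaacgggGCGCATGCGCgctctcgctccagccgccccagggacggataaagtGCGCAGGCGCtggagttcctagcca

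Whole windows of 250 bases are shown for Atp5b (chr10:128083057-128083306, plus strand) and Ndufv3 (chr17:31519865-31520114, plus strand), a pair of members that differed between the tissues in opposite directions, as described further on. Capitals mark CCAAT or its reverse complement ATTGG, with 5 matches at Atp5b and 1 at Ndufv3; neither window holds the NRF1 string. The end of the Atp5b window lies inside the gene by the authors' start (chr10:128083273). A match to such a string is a description of the letters only.
Atp5b: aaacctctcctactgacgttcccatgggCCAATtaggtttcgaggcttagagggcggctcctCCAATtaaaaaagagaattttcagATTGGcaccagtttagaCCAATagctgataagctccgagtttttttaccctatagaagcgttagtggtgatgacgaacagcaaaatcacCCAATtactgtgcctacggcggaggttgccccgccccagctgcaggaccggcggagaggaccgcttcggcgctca
Ndufv3: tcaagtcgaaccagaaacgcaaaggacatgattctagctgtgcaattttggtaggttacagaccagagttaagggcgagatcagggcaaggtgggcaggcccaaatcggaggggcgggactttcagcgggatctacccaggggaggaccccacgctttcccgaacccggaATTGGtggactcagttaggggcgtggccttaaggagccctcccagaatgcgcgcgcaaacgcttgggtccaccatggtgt

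Most of the subunit genes were expressed at high levels, over a wide range from gene to gene. Their median was 52.8 FPKM (fragments scaled to transcript length and library size, the unit of the authors' Cufflinks table, here as the mean over 36 libraries), against 5.92 FPKM for all genes tested between the tissues, and 73 of the 79 lay above that value. As the members were chosen by a count minimum, this is a description of the choice and carries no test. ATP synthase had the highest median of the complexes with 117 FPKM, followed by complex IV with 88.7, complex III with 79.8, the complex I core with 52.8, the complex I accessory subunits with 47.9 and the complex I assembly factors with 11.1 FPKM. The ranges of the complexes overlap, as the plot of levels by complex shows. The assembly factors, which help build complex I and are not part of it, ended at 19.8 FPKM (Ndufaf2), close to where the core subunits began at 18.4 FPKM (Ndufs3).

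**Figure D1:**
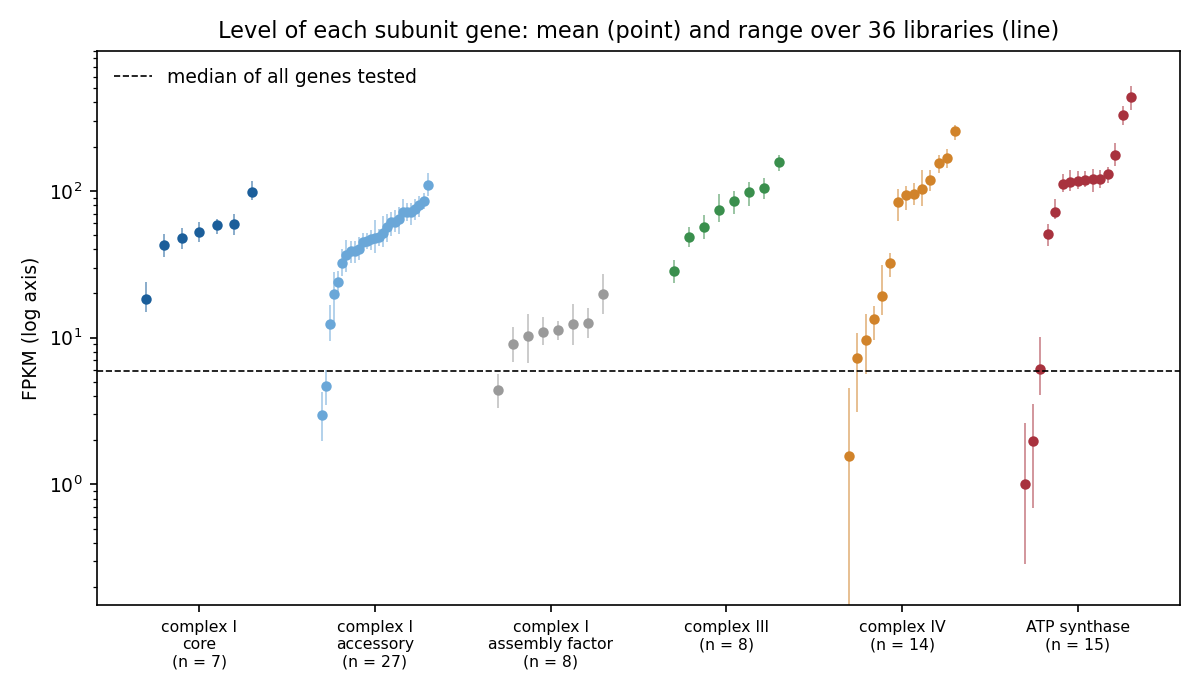
Level of the 79 genes in FPKM on a log axis, by complex and sorted within it; points are means over 36 libraries, lines run from the lowest to the highest library, and the dashed line is the median of all genes tested (5.92 FPKM). Atp5b is highest at 437 FPKM, the assembly factors all lie at or under 19.8 FPKM, and the line of Cox6a2 is cut at the bottom because its lowest library is at 0.

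The top of the range belonged to the catalytic head of ATP synthase. Atp5b, the catalytic beta subunit, averaged 437 FPKM (353 to 520 over the libraries), and Atp5a1, the alpha subunit that alternates with it in the head, averaged 327 FPKM (279 to 381). Cox4i1, the common form of subunit 4, led complex IV at 254 FPKM, ahead of Cox6b1 at 168 FPKM. In complex III the hinge protein gene Uqcrh reached 156 FPKM and the core protein gene Uqcrc1 105 FPKM, while Uqcrb was lowest at 28.6 FPKM. In complex I the highest were Ndufb8 at 109 FPKM and Ndufa2 at 84.9 FPKM among the accessory subunits. Ndufv2, a core subunit of the peripheral arm, was at 59.2 FPKM. Lowest were Ndufb4 with 2.95 FPKM among the accessory subunits and Ndufaf6 with 4.39 FPKM among the assembly factors.

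In most groups of isoform genes 1 form was far higher than the others. Cox4i1 averaged 254 FPKM, against 9.62 FPKM for Cox4i2. Cox6a1 averaged 118 FPKM, against 1.57 FPKM for the muscle form Cox6a2, and Cox6b1 168 FPKM, against 13.4 FPKM for Cox6b2. Cox7a2 averaged 93.3 FPKM and its relative Cox7a2l 32.1 FPKM, with the muscle form Cox7a1 under the count threshold. The same held for Cox8a at 103 FPKM, whose relatives Cox8b and Cox8c were under the threshold, and for Ndufa4 at 155 FPKM, whose relative Ndufa4l2 was too. Cox5a (84.0 FPKM) and Cox5b (19.1 FPKM) are different subunits in spite of their names. The genes Atp5g1 and Atp5g2, which encode the same mature membrane-ring subunit of ATP synthase, were at 1.01 and 1.96 FPKM; Atp5g3, the third gene for that subunit, which the rule leaves out, averaged 252 FPKM.

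Some of the low values are uncertain, because near-identical processed copies of these short genes can share their reads in counting. This holds for Atp5g1, Atp5g2, Cox7c (7.30 FPKM), Atp5md (6.14 FPKM) and Ndufs5 (12.4 FPKM). The low values of Ndufb4 (2.95 FPKM) and Atp5l (4.47 counts) may carry the same limit, as further loci of these names are annotated (Ndufb4c, Atp5l-ps1 and Atp5l-ps2), which was not tested. For Ndufa12, an accessory subunit of complex I, the copy could be followed. Ndufa12 ranged from 12.54 to 30.4 CPM (the counts after TMM scaling for library size) with a median of 19.4, and the pseudogene Ndufa12-ps from 0 to 16.9 CPM with a median of 8.20. The SD of log2(CPM + 1) within groups was 0.32 for Ndufa12, the highest of the 79 genes, and 1.01 for the pseudogene, but 0.12 for the sum of both. In both libraries of Del(CBS1-3) embryo 3 the pseudogene had 1 count (distal) and 0 counts (proximal), and there Ndufa12 was at its highest in each tissue, 30.4 CPM distal and 24.9 CPM proximal. How reads were divided between the pair was not tested.

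Between embryos of a group the genes varied about as much as other genes. The within-group SD of log2(CPM + 1) had a median of 0.08 over the 79 genes, near the 0.09 over the 10130 tested genes with a mean of at least 10 CPM. These sets were not matched for level. The subunit genes of mitochondrial DNA in the authors' FPKM table are listed at 0 in all libraries, so the mitochondrially encoded side of the chain could not be set beside the nuclear one.

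Distal and proximal forelimb differed in few of these genes in WT embryos, and by small amounts. Higher in distal tissue were Cox5a, a subunit of complex IV, Ndufaf1, an assembly factor of complex I, Atp5b and Atp5a1 of the ATP synthase head, and Uqcrc2, a core protein of complex III. Lower were Ndufv3, an accessory subunit at the NADH-binding end of complex I, Ndufb2, an accessory subunit of its membrane arm, Atp5e, the epsilon subunit of ATP synthase, and Cox6a2. This makes 9 of 79 (5 higher and 4 lower; 8 of the other 78 without Cox6a2), against 38.4% of the 16292 genes tested (17.8% higher, 20.5% lower), at an adjusted p under 0.05 in edgeR's quasi-likelihood test. The test did not use the pairing of both tissues within an embryo. A fit with the embryo as a block called 12 members (42.5% of all genes). The median log2 fold change, distal over proximal, was 0.03 for the members and 0.00 for all genes. In bulk tissue, fewer cells of a type and less RNA per cell cannot be told apart.

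Atp5b had 1288, 1182 and 1329 CPM in distal WT tissue, against 1093, 1050 and 1125 CPM in proximal WT tissue. All distal libraries lay above all proximal ones, and the log2 fold change was 0.22 ± 0.05 (SE, adjusted p in edgeR = 0.000252). Cox5a had 79.3, 80.2 and 95.2 CPM in distal tissue, against 75.7, 62.9 and 72.4 CPM in proximal tissue. The groups did not overlap, with distal library 3 well above the others, and the log2 fold change was 0.27 ± 0.08 (edgeR adjusted p = 0.0048); it was 0.18 (adjusted p = 0.0753) without that library and 0.20 (adjusted p = 0.0592) without proximal library 2. Ndufv3 had 50.8, 45.4 and 46.3 CPM in distal tissue, against 59.0, 57.3 and 58.7 CPM in proximal tissue. Here every distal library was lower, with a log2 fold change of -0.30 ± 0.07 (edgeR adjusted p = 0.000817). Atp5a1 averaged 1181 ± 53.8 CPM distally and 1075 ± 2.79 CPM proximally (SD, n = 3 each), a difference of 0.14 ± 0.04 on the log2 scale (SE).

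Of these calls, those of Atp5b and Ndufv3 held under all 12 alternative settings and left-out libraries. Ndufaf1, Ndufb2 and Atp5e, with adjusted p of 0.0425, 0.0438 and 0.0469, lost theirs under 8 or 9 of the 12, and Uqcrc2 (adjusted p = 0.0117) under 5. The average of the tissue difference over the 6 genotypes rests on 18 libraries on each side.

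Averaged over the genotypes, 37 of the 79 genes differed between the tissues, and most of them were higher in distal tissue: 31 higher and 6 lower, or 31 and 5 of the other 78 without Cox6a2. Among all genes 68.6% were called (34.4% higher, 34.2% lower), and whether the members' share differs from this was not tested. The median log2 fold change was 0.05 for the members and -0.00 for all genes tested, and 57 members had a positive value. Every called difference but those of Cox6a2 and Cox4i2 was within 0.25 on the log2 scale. All called core subunits (4 of 7 tested), complex III subunits (3 of 8) and assembly factors of complex I (4 of 8) were higher in distal tissue, as were 6 of 7 called genes of complex IV, 5 of 6 of ATP synthase and 9 of 13 called accessory subunits of complex I. Members with a coding length of at most 600 bases split into 16 higher and 5 lower of 57 (median 0.03), and longer ones into 15 higher and 1 lower of 22 (median 0.09). Other genes of at most 600 coding bases split evenly, 549 higher and 525 lower of 1608.

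**Figure D2:**
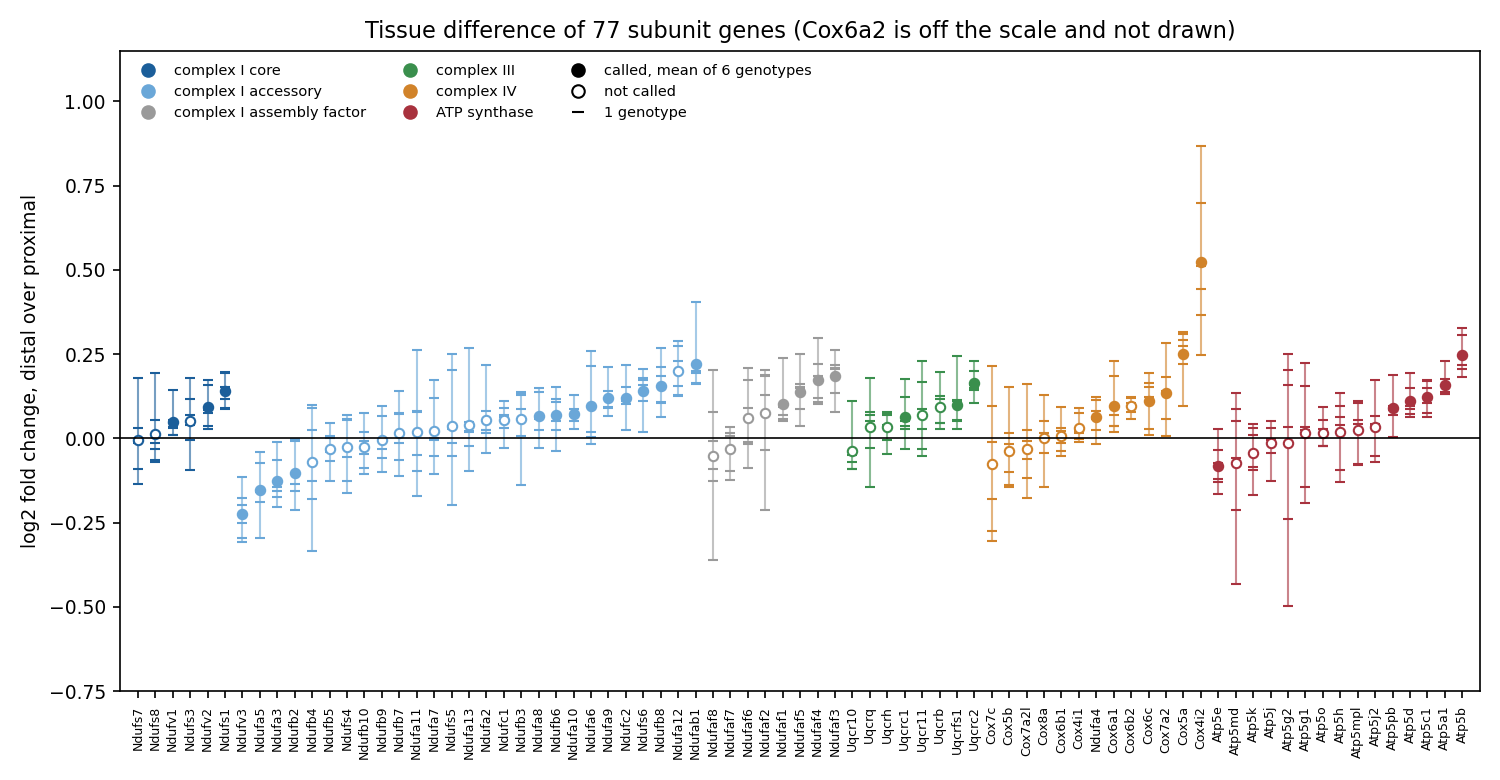
Log2 fold change, distal over proximal, of 77 members by complex (Cox6a2 is off the scale); points are the average over 6 genotypes, filled where the adjusted p is under 0.05, and ticks are the single genotypes. Cox4i2 stands highest at 0.52 and Ndufv3 lowest at -0.22, and most filled points lie above 0.

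Cox4i2 had the largest difference upward. It ranged from 9.57 to 15.3 CPM in distal libraries (median 11.6, mean 12.1 ± 1.4), against 6.09 to 10.03 CPM in proximal ones (median 8.61, mean 8.38 ± 1.12; SD, n = 18 each). The ranges touch only at their ends. Its log2 fold change was 0.52 ± 0.06 (edgeR adjusted p = 1.53e-09), and the common form Cox4i1, at 237 to 289 CPM distally and 237 to 287 CPM proximally, was not called. Atp5b ranged from 1182 to 1428 CPM in distal tissue (median 1322), against 990 to 1214 CPM in proximal tissue (median 1090), with a log2 fold change of 0.25 ± 0.02. Cox5a ranged from 74.3 to 97.1 CPM (median 85.0) in distal tissue, against 58.6 to 85.5 CPM (median 70.8) in proximal tissue, with a log2 fold change of 0.25 ± 0.03 (edgeR adjusted p = 2.06e-08). The ranges of Atp5b overlap at their edges, with 2 of 18 distal libraries under the highest proximal one, while for Cox5a 9 of 18 distal libraries lay under the highest proximal one.

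The Cox4i2 difference had its extremes in Del(CBS1-2) and WT. In Del(CBS1-2), where it was largest, Cox4i2 had 14.9, 15.3 and 11.5 CPM in distal tissue, against 6.09, 8.95 and 7.77 CPM in proximal tissue. In WT, where it was smallest and not called, it had 11.5, 9.57 and 11.3 CPM in distal tissue, against 9.90, 8.23 and 9.25 CPM in proximal tissue. The Del(CBS1-2) groups were well apart and the WT groups overlapped, with log2 fold changes of 0.87 and 0.25. Within each WT embryo the distal library was above the proximal one, a pairing that the test did not use. The variation over genotypes was not called for this gene.

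On mm10, with coordinates from the authors' FPKM table, the members lie on 18 chromosomes. Cox4i2 lies at chr2:152754173-152765037 (plus strand), Cox5a at chr9:57521279-57532426 (plus strand), Atp5b at chr10:128083273-128090391 (plus strand) and Cox6a2 at chr7:128205435-128206387 (minus strand). Ndufv3, the lowest of the called genes after Cox6a2, lies at chr17:31520115-31531331 (plus strand). The values are whole-gene counts or FPKM and do not separate exons or isoforms.

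Next in size were genes with roles around complex I. Ndufab1, the mitochondrial acyl carrier protein that is also a complex I subunit, averaged 17.2 ± 1.41 CPM distally and 14.7 ± 1.1 CPM proximally (SD, n = 18 each), a log2 fold change of 0.22 ± 0.04. The assembly factors Ndufaf3 and Ndufaf4, which act together in early assembly, had log2 fold changes of 0.18 ± 0.06 and 0.17 ± 0.03; that of Ndufaf3 was 0.12 (edgeR adjusted p = 0.164) without replicate 3 of each genotype. Of the remaining higher genes, Uqcrc2 and Atp5a1 each had a log2 fold change of 0.16.

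The remaining genes called higher differed by 0.16 or less on the log2 scale. In complex I they included the core subunits Ndufs1 (0.14), Ndufv2 (0.09) and Ndufv1 (0.05), the accessory subunits Ndufb8 (0.16), Ndufs6 (0.14), Ndufa9 (0.12), Ndufc2 (0.12), Ndufa6 (0.10), Ndufa10 (0.07), Ndufa8 (0.07) and Ndufb6 (0.07), and the assembly factors Ndufaf5 (0.14) and Ndufaf1 (0.10). In complex III they were Uqcrfs1, the Rieske iron-sulphur protein (0.10), and Uqcrc1 (0.06). In complex IV they were Cox7a2 (0.13), Cox6c (0.11), Cox6a1 (0.10) and Ndufa4 (0.06), and in ATP synthase Atp5c1, the gamma subunit of the rotor (0.12), Atp5d, its delta subunit (0.11), and Atp5pb of the stalk (0.09).

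Summed over the 79 genes, the level was 7255 to 8546 CPM in distal libraries (median 8055), against 6882 to 8157 CPM in proximal ones (median 7397). By complex, ATP synthase had 3376 to 4011 CPM in distal tissue, against 3086 to 3683 CPM in proximal tissue, and the complex I core 718 to 833 CPM in distal tissue, against 668 to 776 CPM in proximal tissue. The accessory subunits of complex I had 1317 to 1595 CPM in distal tissue, against 1322 to 1583 CPM in proximal tissue. The sums overlap between the tissues in all of these groups, and nearly coincide for the accessory subunits.

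Lower in distal tissue, apart from Cox6a2, were 4 accessory subunits of complex I and 1 subunit of ATP synthase. Ndufv3 ranged from 45.4 to 55.5 CPM in distal libraries (median 49.7), against 47.6 to 68.0 CPM in proximal ones (median 58.2), with a log2 fold change of -0.22 ± 0.03 (edgeR adjusted p = 2.3e-08). Ndufa5, of the peripheral arm, averaged 36.7 ± 2.46 CPM distally and 40.7 ± 2.89 CPM proximally, which is -0.15 on the log2 scale. Ndufa3 (-0.13), Ndufb2 (-0.10) and Atp5e (-0.08) followed. Genes of the same complex differed in opposite directions: in complex I, Ndufv3 was lower and the core subunit gene of the same end, Ndufv2, was higher by 0.09.

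Cox6a2, the muscle form of subunit 6a, was nearly absent from distal tissue. In WT it had 0, 0 and 0 counts in distal libraries, against 42, 53 and 26 counts in proximal ones, and with the limit that a count of 0 allows (3 counts over the group) it was at least 41.8-fold lower in distal WT tissue. Over all genotypes there were 17 distal and 770 proximal counts, which at the library sizes makes the proximal level 47.5 times the distal one (95% exact binomial interval 29.4 to 81.9, for counting error only). Cox6a2 reached the count threshold through its proximal libraries alone, so that this difference is tied to the way the genes were chosen and is given as a description. Of the distal counts, 6 came from library 1 of Del(CBS1-2) and 5 from library 3 of Del(CBS1-4).

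**Figure D3:**
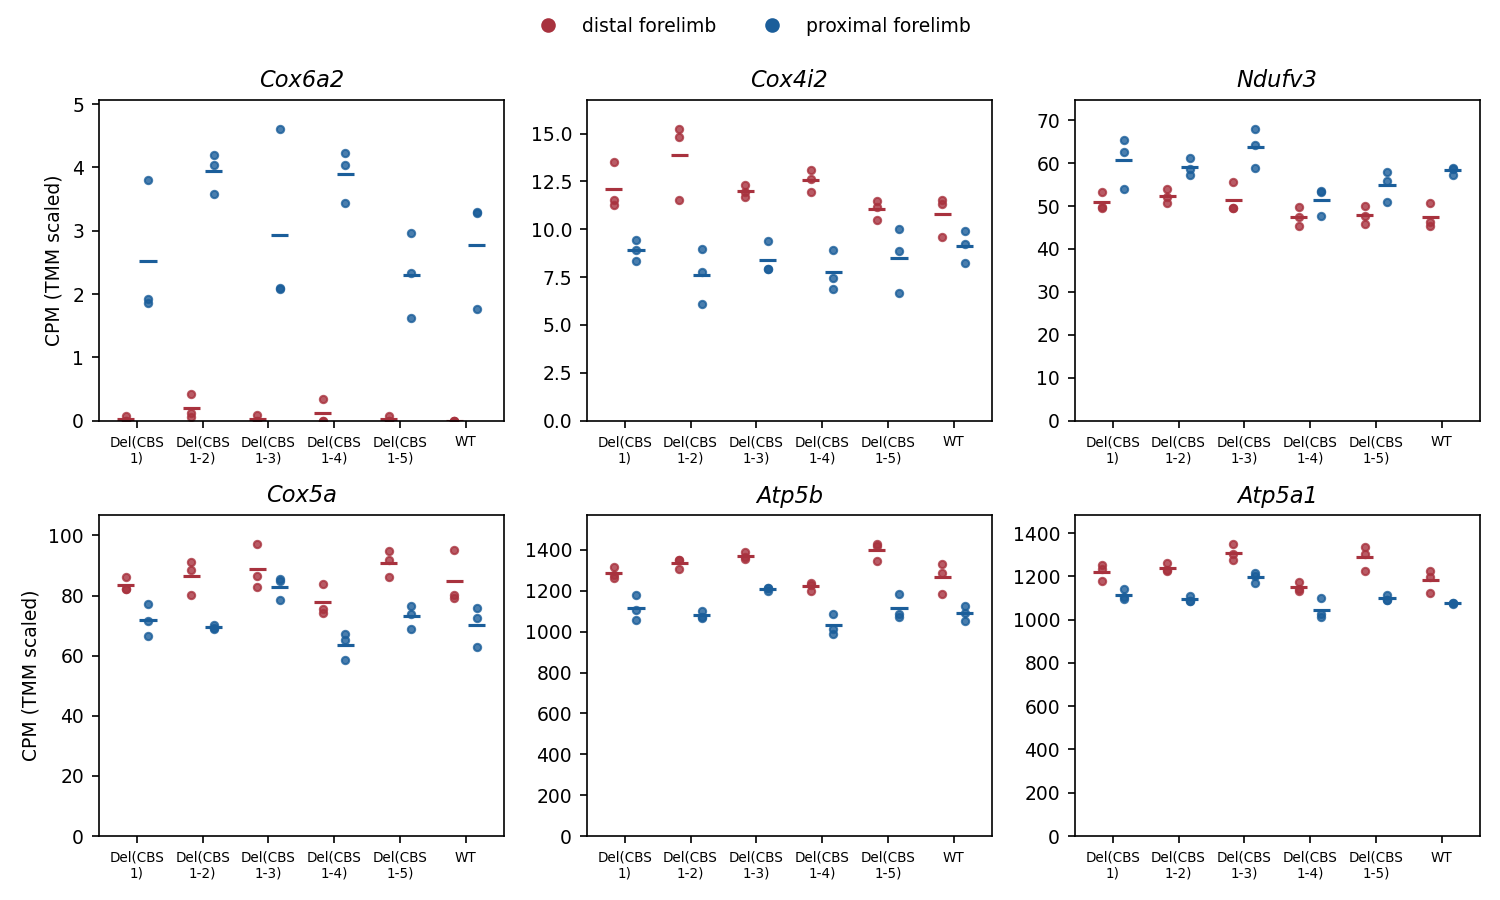
CPM in every library for Cox6a2, Cox4i2, Ndufv3, Cox5a, Atp5b and Atp5a1, with distal libraries in red left of proximal libraries in blue within each genotype and bars at the group means (n = 3). Cox6a2 is at or near 0 in distal libraries, with 0.42 CPM at most, and between 1.62 and 4.61 CPM in proximal ones, and Ndufv3 runs lower in distal libraries where Atp5b runs higher.

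Markers of cell types moved with these differences. All 18 skeletal muscle marker genes fitted were lower in distal tissue (median log2 fold change -5.51), their summed level was 23.9 to 177 CPM in distal and 2191 to 3964 CPM in proximal libraries, and none was at 0 in all libraries of a tissue. All 12 proliferation genes were higher in distal tissue (median 0.55), with a sum of 4105 to 4726 CPM in distal and 2471 to 3326 CPM in proximal libraries. Of 11 cartilage markers 9 were lower and 1 higher, all 10 endothelial markers were lower, and of 10 epidermal markers 7 were higher and 1 lower. Nerve and Schwann cell markers summed to 50.8 to 78.3 CPM in distal and 155 to 202 CPM in proximal libraries. Sums overlapped for macrophage markers (50.4 to 85.1 CPM distal, 63.9 to 118 CPM proximal) and erythroid markers (2065 to 6217 CPM distal, 1580 to 3648 CPM proximal). The part of cell makeup in the differences of the subunit genes was not tested.

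A few genes differed between the tissues in every genotype, while 45 of the 79 (57.0%, against 40.6% of all genes) had mixed signs over the 6 genotypes. Atp5b (log2 fold change 0.18 to 0.33 over the 6 genotypes) and Atp5a1 (0.13 to 0.23) were called in all 6, as was Cox6a2, which its proximal level made a member. These 3 genes are 3.8% of the members, against 22.1% of all genes called in all 6. Cox5a (0.10 to 0.32), Cox4i2 (0.25 to 0.87), Uqcrc2 (0.11 to 0.23) and Ndufv3 (-0.31 to -0.11) had the same sign in all 6 and were called in 5. In all, 29 of the 79 genes were higher in distal tissue in each genotype and 5, Cox6a2 among them, were lower in each (36.7% and 6.33%). Of all genes tested, 30.1% and 29.3% were. Called in none were 36 members (45.6%), against 35.2% of all genes.

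The number of members called between the tissues was not the same in each genotype. In Del(CBS1), 7 members were higher in distal tissue and 2 lower (17.4% and 20.3% of all genes). In Del(CBS1-2) the counts were 26 and 2 (22.7% and 21.9%), in Del(CBS1-3) 4 and 7 (18.4% and 19.5%), and in Del(CBS1-4) 13 and 2 (18.8% and 21% of all genes). In Del(CBS1-5) they were 18 and 2 (20.8% and 20.3%), and in WT 5 and 4. The lower count of each of the 6 genotypes includes Cox6a2, which its proximal level made a member. Median log2 fold changes of the members were 0.03, 0.14, -0.01, 0.07, 0.09 and 0.03 in the same order. The test of whether the tissue difference differs between genotypes called 0 of 79 members in edgeR (DESeq2 and limma also called 0), against 0.755% of all genes. At an unadjusted p under 0.05 there were 9 of 79 members (11.4%), a share near that of all genes (1799 of 16292). With the embryo as a block, 1 member of 79 was called, against 1.74% of all genes (284 of 16292). It was Ndufa11, an accessory subunit of the membrane arm of complex I (edgeR adjusted p = 0.0259, against 0.149 without the block).

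Other genes of mitochondrial energy metabolism were also more often higher than lower in distal tissue on average over the genotypes. In complex II, which feeds electrons from succinate, 3 of 4 genes were higher in distal tissue, with Sdhd at a log2 fold change of 0.27, Sdhc at 0.09 and Sdha at 0.07. In the tricarboxylic acid cycle, 10 of 12 were higher and 1 lower, led by citrate synthase Cs (0.37), Suclg2 (0.30) and Idh3a (0.27), with Idh3b at -0.04. Cytochrome c1 (Cyc1) was higher by 0.17, and cytochrome c (Cycs, 0.12 ± 0.09, SE) was not called. Cycs averaged only 2.85 CPM distally and 2.67 CPM proximally, while Cyc1 averaged 157 and 140 CPM. With so few reads, the missing call does not show that Cycs was alike in both tissues. Whether near-identical copies share reads of Cycs was not tested. Mitochondrial ribosomal proteins, which translate the mitochondrially encoded subunits, had 50 higher and 1 lower of 78 (median 0.12), and cytosolic ribosomal proteins 31 higher and 2 lower of 83 (median 0.06). Of all genes tested, 34.4% were called higher and 34.2% lower, and the median over all genes was -0.00. Whether any of these lists differs from all genes was not tested.

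Among regulators and enzymes of mitochondrial biogenesis 9 of 14 were higher in distal tissue and 3 lower. For these and the lists that follow, the shares of all genes were again 34.4% higher and 34.2% lower. Higher were Polg, the polymerase of mitochondrial DNA (0.49), Twnk, its helicase (0.37), and the transcription factor gene Nrf1 (0.30). Lower were the coactivator genes Ppargc1b (-0.75) and Ppargc1a (-0.25) and the receptor gene Esrra (-0.14), which they work with. Assembly factors outside the members were mixed: of those for complex IV 4 of 18 were higher, with Taco1 at 0.22, and 5 lower, with Cox19 at -0.16, of the 6 for complex III Uqcc1 was higher (0.22) and Ttc19 lower (-0.20), and of the 3 for ATP synthase 1 was higher, Tmem70 (0.10). In glycolysis 8 of 15 were higher, led by Pfkp (0.48), Pkm (0.35) and Ldha (0.26), and 3 lower, Aldoa (-0.23), Hk1 (-0.23) and Pdk1 (-0.14), a kinase that inhibits pyruvate dehydrogenase.

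Against WT of the same tissue, the deletions left the subunit genes close to their WT level, with called differences in 2 of 10 comparisons. In distal tissue of Del(CBS1-2), 8 of 78 members were higher and 0 lower, a share of 10.3% that is near the 10.5% of all genes called there. In proximal tissue of Del(CBS1-3), 1 was higher (0.0696% of all genes called). The 5 comparisons within a tissue use the same 3 WT libraries, so that a WT library which stands apart moves all of them together. In distal tissue 78 members passed the count filter (Cox6a2 did not) among 15361 genes, and in proximal tissue all 79 among 15813.

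**Figure D4:**
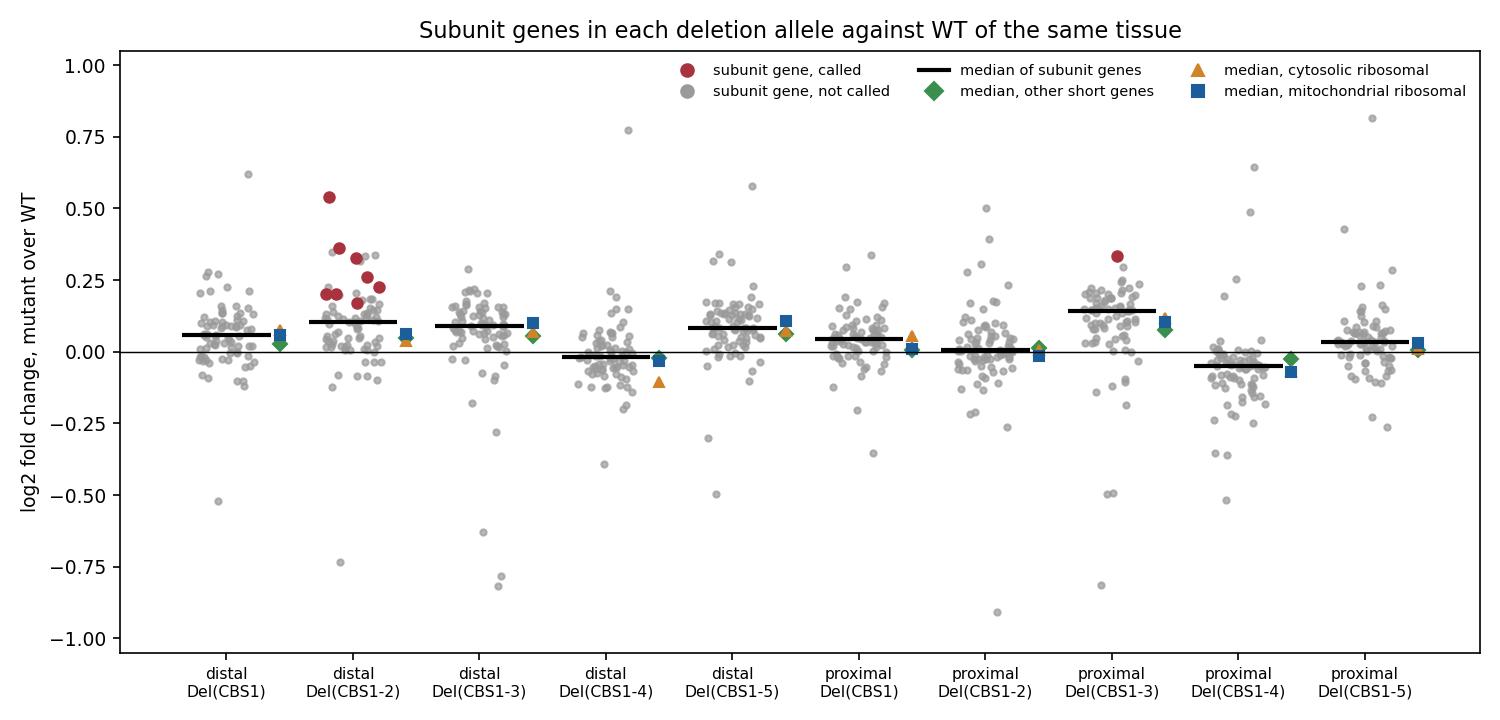
Log2 fold change of the members, mutant over WT of the same tissue, in 10 comparisons; red points are called, bars are medians of the members, and the small symbols beside them are medians of other genes of at most 600 coding bases, of mitochondrial ribosomal and of cytosolic ribosomal protein genes. The members' median runs from -0.05 in proximal Del(CBS1-4) to 0.14 in proximal Del(CBS1-3), and the medians of the other lists mostly lie on the same side of 0.

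In distal Del(CBS1-2) tissue the called genes were the accessory subunits of complex I Ndufb10, Ndufa11, Ndufa7 and Ndufb9, Cox7c of complex IV, Uqcrc1 of complex III, and Atp5e and Atp5o of ATP synthase, where Atp5o encodes the protein that joins the head to the outer stalk. Ndufb10 had 72.0, 66.6 and 64.2 CPM in Del(CBS1-2), against 49.4, 48.5 and 57.2 CPM in WT, a log2 fold change of 0.36 ± 0.09 (edgeR adjusted p = 0.0157). Ndufa11 had 53.5, 54.6 and 51.6 CPM in Del(CBS1-2), against 44.2, 36.6 and 44.5 CPM in WT, a log2 fold change of 0.33 ± 0.07 (edgeR adjusted p = 0.0074). In both genes each mutant library was above each WT library, as for the other 6. Cox7c had 8.94, 9.20 and 9.66 CPM in Del(CBS1-2), against 4.64, 6.17 and 7.97 CPM in WT (0.54 ± 0.17, edgeR adjusted p = 0.0495), with WT spread over a wide range. The rest averaged 80.1 against 67.3 CPM (Ndufb9, 0.23), 70.3 against 57.7 CPM (Ndufa7, 0.26), 254 against 218 CPM (Uqcrc1, 0.20), 115 against 98.5 CPM (Atp5e, 0.20) and 152 against 133 CPM (Atp5o, 0.17), in Del(CBS1-2) against WT.

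In mm10, Ndufb10 lies at chr17:24722060-24724478 (minus strand), Ndufa7 at chr17:33824572-33838317 (plus strand) and Ndufa11 at chr17:56717767-56722141 (plus strand). Ndufb9 lies at chr15:58933756-58939488 and Uqcrc1 at chr9:108936633-108949623, both on the plus strand, and Cox7c at chr13:86044816-86046904 on the minus strand. Atp5o lies at chr16:91925214-91931687 (minus strand). Atp5e, at chr2:174461072-174464105 (minus strand), is on the chromosome that also carries the Hoxd cluster, outside the cluster.

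This was 8 of 78 members, against 10.5% of all genes called in either direction, 4.47% called higher and 5.99% called lower; all 8 were also free of overlap, against 4.43% of all genes called higher and without overlap. The median log2 fold change was 0.11 for the members and -0.00 for all genes, and 69 of 78 members were positive (49.4% of all genes). Other genes of at most 600 coding bases were positive in 58.9% of 1520 (median 0.05), mitochondrial ribosomal proteins in 54 of 78 (median 0.06) and cytosolic ones in 48 of 81 (median 0.04). The number of members called depended on single libraries: it was 3 without WT library 2 (6.25% of all genes called), 14 without WT library 3 (9.19%), 3 without Del(CBS1-2) library 1 (4.83%) and 4 without Del(CBS1-2) library 2 (3.88%). Ndufa11 and Ndufb9 kept their call under all 11 alternatives, while Cox7c lost its call under 7.

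Other features of these libraries moved with the result. Skeletal muscle markers summed to 91.7 to 177 CPM in distal Del(CBS1-2) libraries, against 44.8 to 46.4 CPM in distal WT libraries, with 16 of 16 fitted markers positive and 2 called. All 11 cartilage markers were positive and 3 called, and the median of 11 erythroid markers was -0.64, with 2 called lower. Epidermal and ectodermal markers summed to 622 to 723 CPM in distal Del(CBS1-2) libraries, against 520 to 541 CPM in distal WT libraries, with 6 of 10 positive and 2 called higher, the keratin genes Krt5 and Krt14. Sums of nerve and endothelial markers were also above WT in every library, at 74.3 to 77.0 CPM against 64.3 to 71.2 CPM and at 408 to 419 CPM against 371 to 402 CPM, in Del(CBS1-2) against WT. By their sex-linked genes all 3 Del(CBS1-2) embryos were female, while WT had 2 females and 1 male. The part of these in the difference was not tested. In proximal tissue of the same embryos 0 members were called in edgeR, with 5 at an unadjusted p under 0.05 (6.33%, against 19.5% of all genes; 2 called in DESeq2 and 0 in limma; 0.721% of all genes called in edgeR), and the median was 0.00.

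In proximal Del(CBS1-3) tissue Cox8a, the common form of the smallest subunit of complex IV, was called. Cox8a (chr19:7215153-7217616, minus strand) had 96.8, 108 and 92.8 CPM in Del(CBS1-3), against 82.5, 76.8 and 76.2 CPM in WT. Every mutant library was higher, with a log2 fold change of 0.33 ± 0.06 (edgeR adjusted p = 0.0496). The call was lost without WT library 2 or 3 or without any single mutant library (adjusted p of 0.0548 to 0.247). This was 1 of 79 members, against 0.0696% of all genes (0.0126% called higher). Called or not, 69 of 79 members were positive, with a median of 0.14 and 36 at an unadjusted p under 0.05 (45.6%, against 13.1% of all genes), and their summed level was 7943 to 8157 CPM in Del(CBS1-3), against 7201 to 7414 CPM in WT. Lists outside the chain had positive medians too: mitochondrial ribosomal proteins were positive in 66 of 78 (median 0.10), cytosolic ones in 57 of 81 (median 0.12) and other genes of at most 600 coding bases in 71.4% (median 0.08), and all 18 muscle markers were positive (median 0.28).

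In the other comparisons edgeR called 0 members. Summed levels of the members in distal tissue were 7792 to 8046 CPM in Del(CBS1), 8189 to 8471 CPM in Del(CBS1-3), 7447 to 7687 CPM in Del(CBS1-4) and 8121 to 8546 CPM in Del(CBS1-5), against 7255 to 8043 CPM in WT. All libraries of Del(CBS1-3) and Del(CBS1-5) were above WT in this sum, and those of Del(CBS1) and Del(CBS1-4) overlapped with WT. Of all genes, 0.0325% were called in distal Del(CBS1), 0.00651% in Del(CBS1-3), 0.0846% in Del(CBS1-4) and 0.0651% in Del(CBS1-5). At an unadjusted p under 0.05, distal Del(CBS1) had 10 of 78 members (12.8%, against 9.69% of all genes) and Del(CBS1-4) had 4 (5.13%, against 15.3%). Del(CBS1-3) had 25 (32.1%, against 13.9%) and Del(CBS1-5) had 22 (28.2%, against 13.1%). The median of the members was 0.06 in distal Del(CBS1), 0.09 in Del(CBS1-3), -0.02 in Del(CBS1-4) and 0.08 in Del(CBS1-5). DESeq2 and limma called 0 in these too, except 1 in Del(CBS1-3) with DESeq2. In proximal tissue, 0.0443% of all genes were called in Del(CBS1), 0% in Del(CBS1-4) and 0.0696% in Del(CBS1-5), and DESeq2 and limma called 0 members. At an unadjusted p under 0.05, Del(CBS1) had 5 of 79 members (6.33%, against 7.1% of all genes), Del(CBS1-4) had 11 (13.9%, against 14.1%) and Del(CBS1-5) had 4 (5.06%, against 6.48%), all at or near the share of all genes. The median of the members was 0.04 in proximal Del(CBS1), -0.05 in Del(CBS1-4) and 0.03 in Del(CBS1-5). Proximal Del(CBS1-4) stood at the low end: 12 of 79 members were positive, and their summed level was 6882 to 7206 CPM, against 7201 to 7414 CPM in WT. In the same comparison 12 of 78 mitochondrial and 25 of 81 cytosolic ribosomal proteins were positive (medians -0.07 and -0.07), as were 0 of 12 proliferation genes (median -0.25). The median over all genes stayed within 0.01 of 0 in all 10 comparisons.

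Atp5g1, a gene for the membrane-ring subunit and the lowest of ATP synthase, varied widely between genotypes without passing the test in any comparison. It had 8.05, 9.69 and 8.88 CPM in distal Del(CBS1-4), and 2.52, 2.22 and 4.13 CPM in distal Del(CBS1-3), against 2.46, 6.52 and 6.54 CPM in distal WT. In proximal tissue it had 6.17, 9.81 and 7.88 CPM in Del(CBS1-4), and 3.53, 2.09 and 3.10 CPM in Del(CBS1-3), against 3.90, 5.92 and 5.37 CPM in WT. In both tissues the Del(CBS1-4) libraries lay above all Del(CBS1-3) libraries, and WT embryo 1 was lowest of its group. Log2 fold changes against WT were 0.77 ± 0.29 in distal Del(CBS1-4) and 0.64 ± 0.23 in proximal Del(CBS1-4) (edgeR adjusted p = 0.198 and 0.239). Both tissues come from the same embryos, so these are not independent of each other. Reads of Atp5g1 may be shared with near-identical copies, and the part of this in its spread was not tested.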

How the data were processed

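RNA-seq libraries of distal and proximal mouse forelimb, 3 embryos for each of 6 genotypes, were analysed from the authors' tables. The authors deposited whole-number read counts per Ensembl gene (autosomes only) and Cufflinks FPKM values, per the file headers. Named in the submitters' processing notes are STAR 2.7.0, cutadapt 1.16, bedtools 2.27.1, Cufflinks 2.2.1 and the build mm10. How reads were counted, and whether by strand, is not stated there. Groups and replicate numbers come from the sample titles, and 0 columns were left without a sample.

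Members and gene lists were chosen with earlier results of these data known. Counts were tested with edgeR 4.0.16 in R 4.3.3 (filterByExpr, TMM scaling, quasi-likelihood F test, first tested on simulated data), mutants against WT in the 18 libraries of a tissue, and tissues, with their interaction with genotype, in all 36. Calls need an adjusted p under 0.05, by Benjamini-Hochberg over every gene of the fit; SE belongs to log2 fold changes and SD to levels. The p-values set differences against the variation among embryos of a group. The tissue tests took the 36 libraries as independent, although both tissues come from the same embryos. The embryo as a block was an alternative only. Alternatives were DESeq2 1.42.0, limma 3.58.1 on log2(FPKM + 1) for genes with a mean of at least 1 FPKM, RLE scaling, no count filter, a replicate block and each library left out. An adjusted p that DESeq2 did not give was not counted.

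Named are the 2 highest and the lowest gene of each complex by FPKM, up to 6 called members per direction and comparison, paralog groups and genes next to the count threshold. One member that this rule names is not reported here. Of the lists up to 3 called genes per list were to be named; Atp5o, Ndufa12, Atp5md, Ndufs5, the remaining called members and further list genes were added after their values were seen. Rps6k kinases and genes whose symbol ends in bp1 were taken out of the cytosolic ribosomal list after its rule was set. Coding lengths (median of the members 432 bases) are from GENCODE M21, used in place of a table of proteins.

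Distal and proximal libraries with the same genotype and number deviated together (r of 0.25 to 0.70 in 18 of 18 pairs) and matched in sex in 18 of 18, so the number marks the embryo. Mutant and WT libraries with the same number had r over 0.1 in all 6 pairs of Del(CBS1-3) (r of 0.16 to 0.49, both tissues) and in 2 of the other 24 pairs. Those 2 pairs were of Del(CBS1-2) number 2, distal and proximal (r of 0.23 in both). The labels give no shared origin, and Del(CBS1-3) and WT embryos of the same number were of opposite sex. The reported tests against WT did not use the number for any genotype, and a block on it was an alternative only. Replicates of a group differed by more than sampling noise (chi-square per degree of freedom 2.57 to 18.8).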

Additional observations from a re-analysis of the deposited data

Results flagged for a closer look

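The subunit genes on chromosome X (Ndufa1 and Ndufb11 of complex I and Cox7b of complex IV) are in the FPKM table and outside the count table, so they entered no test. Their summed level was above that of every WT library of the tissue in 3 mutant groups. The lowest mutant library had 161.6 FPKM in distal Del(CBS1-3) and 156.1 FPKM in distal Del(CBS1-5), against 154.7 FPKM in the highest distal WT library. In proximal Del(CBS1-3) the lowest mutant library had 154 FPKM, against 149.5 FPKM in the highest proximal WT library. No test was made of these differences. By their sex-linked genes the Del(CBS1-3) embryos were 2 males and 1 female, the Del(CBS1-5) embryos 2 females and 1 male, and the WT embryos 2 females and 1 male.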

How the results depend on the processing

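With genes of low count left in, 1 member was called in distal Del(CBS1-3), distal Del(CBS1-4) and proximal Del(CBS1-5), 2 in proximal Del(CBS1-2), 3 in proximal Del(CBS1-3) and 5 between the WT tissues (17.2% of all genes). Over all genes the calls in these mutants then numbered 551, 1073, 362, 1367 and 462, in the same order, against 1, 13, 11, 114 and 11 with the filter. In distal Del(CBS1-2), 12 members were called without the filter, where 7.06% of 30484 genes were called. With the filter there were 8, where 10.5% of 15361 genes were called. DESeq2 called 1 in distal Del(CBS1-3), 2 in proximal Del(CBS1-2) and 5 in proximal Del(CBS1-3), where 63 members had an adjusted p. Over all genes DESeq2 called 145, 521 and 152, in the same order. The 6 WT libraries fitted alone gave 3 calls between the tissues (30.7% of all genes). With 1 library left out at a time, calls ran from 3 to 14 in distal Del(CBS1-2), 0 to 3 in distal Del(CBS1-3), 0 to 1 in distal Del(CBS1-4), distal Del(CBS1-5) and proximal Del(CBS1-2), and 0 to 2 in proximal Del(CBS1-3). Over all genes the calls ran from 607 to 1439, 1 to 169, 6 to 525, 2 to 320, 30 to 291 and 0 to 52, in the same order. The cause was not tested. The replicate block (the embryo, between tissues) gave 1 call for the interaction (1.74% of all genes). It gave 12 between the WT tissues (42.5%) and 40 on average over genotypes (70.4%). Between genotypes it gave 6 in distal Del(CBS1-2) (8.5% of all genes), where 2 of 6 same-numbered pairs over both tissues had r over 0.1. In proximal Del(CBS1-3), where same-numbered libraries deviated together, it gave 1 (0.0822% of all genes), Cox8a (edgeR adjusted p = 0.0349). It changed no other count of members. The average over genotypes had 29 to 40 calls under its alternatives, with 9066 to 11735 genes called over all genes. Of 281 recomputed values of single genes, 224 kept their direction and their side of the threshold, 57 lost the call and 0 reversed. RLE scaling or no count filter moved the median of all genes by at most 0.0053 (log2). Low counts limit the precision of Cox6a2, Atp5g1 and Cox7c.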
